A study of Mus musculus with 11 samples.

Results

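Bile acid synthesis, its nuclear receptor feedback and bile acid transport were followed in mouse liver through 10 genes: the synthesis enzymes Cyp7a1, Cyp8b1, Cyp27a1 and Cyp7b1, the conjugating enzyme Baat, the receptor Nr1h4 and its target Nr0b2, and the transporters Slc10a1, Abcb11 and Abcc3. Every probe whose deposited gene symbol equals one of these names was taken, which gave 12 of the 45281 probes on the array. Cyp27a1 had 3 probes and each of the other genes had 1. A probe was tested when its detection p was under 0.05 on at least 3 arrays, and 11 of the 12 passed. Each of the 11 was detected on all 11 arrays.

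Liver total RNA came from 11 female C57Bl/6 mice, 1 Illumina BeadChip array for each animal. The 3 groups were mice injected with 5'-adenosine monophosphate (5'-AMP) at 0.5 mg per g body weight and killed at 12 h (4 mice, RF or Rev Flip in the labels), mice given the same dose and killed at 6 h (4 mice, AIHM in the labels), and vehicle controls (3 mice). What RF and Rev Flip stand for is not explained in the labels, and these mice may have differed from the 6 h mice in other ways than time. The time at which controls were killed is not stated either. Both comparisons with control use the same 3 control arrays.

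The liver makes bile acids from cholesterol, with Cyp7a1 starting the classical route and Cyp27a1 and Cyp7b1 acting in the alternative route. Bile acids bind FXR, the product of Nr1h4, which induces Nr0b2 (SHP), and SHP in turn lowers transcription of Cyp7a1 and Cyp8b1. Hepatic bile acid synthesis follows a daily rhythm, and the clock proteins encoded by Nr1d1, Dbp and Nfil3 are known to act on it.

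Levels are given as log2 normalised signal, after background correction and quantile normalisation, and differences as log2 fold change ± SE. Levels of different probes cannot be set against each other, because each probe has its own brightness. No bile acid probe passed the test (limma's moderated test, Benjamini-Hochberg adjusted p under 0.05 over all 16978 probes tested) in any comparison. At 12 h against control 0 of 11 passed, where 2.69% of all probes did. For 6 h against control the count was 0 of 11, with 0.807% of all probes called. Between 12 h and 6 h it was 0 of 11, with 0.872% of all probes called. At an unadjusted limma p under 0.05, 1 of 11 probes was counted in each comparison (Cyp7a1 at 12 h against control, Abcc3 at 6 h against control, Cyp7a1 at 12 h against 6 h), against 17.6%, 15.9% and 14.5% of all probes in the same order. The median log2 fold change of the 11 probes was 0.11, 0.04 and 0.09 in that order, beside -0.02, -0.01 and 0.00 over all probes tested.

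The precision can be read from the 95% intervals. The interval of the difference lay within 2-fold in both directions for 9 of 11 probes for 12 h against control, for 10 in the 6 h comparison with control and for 10 between the 2 times. Over all probes the shares were 87.8%, 90.5% and 93.5% in that order. The exceptions were Cyp7a1 and Baat at 12 h against control, Baat at 6 h against control, and Cyp7a1 between the 2 times.

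**Figure D1:**
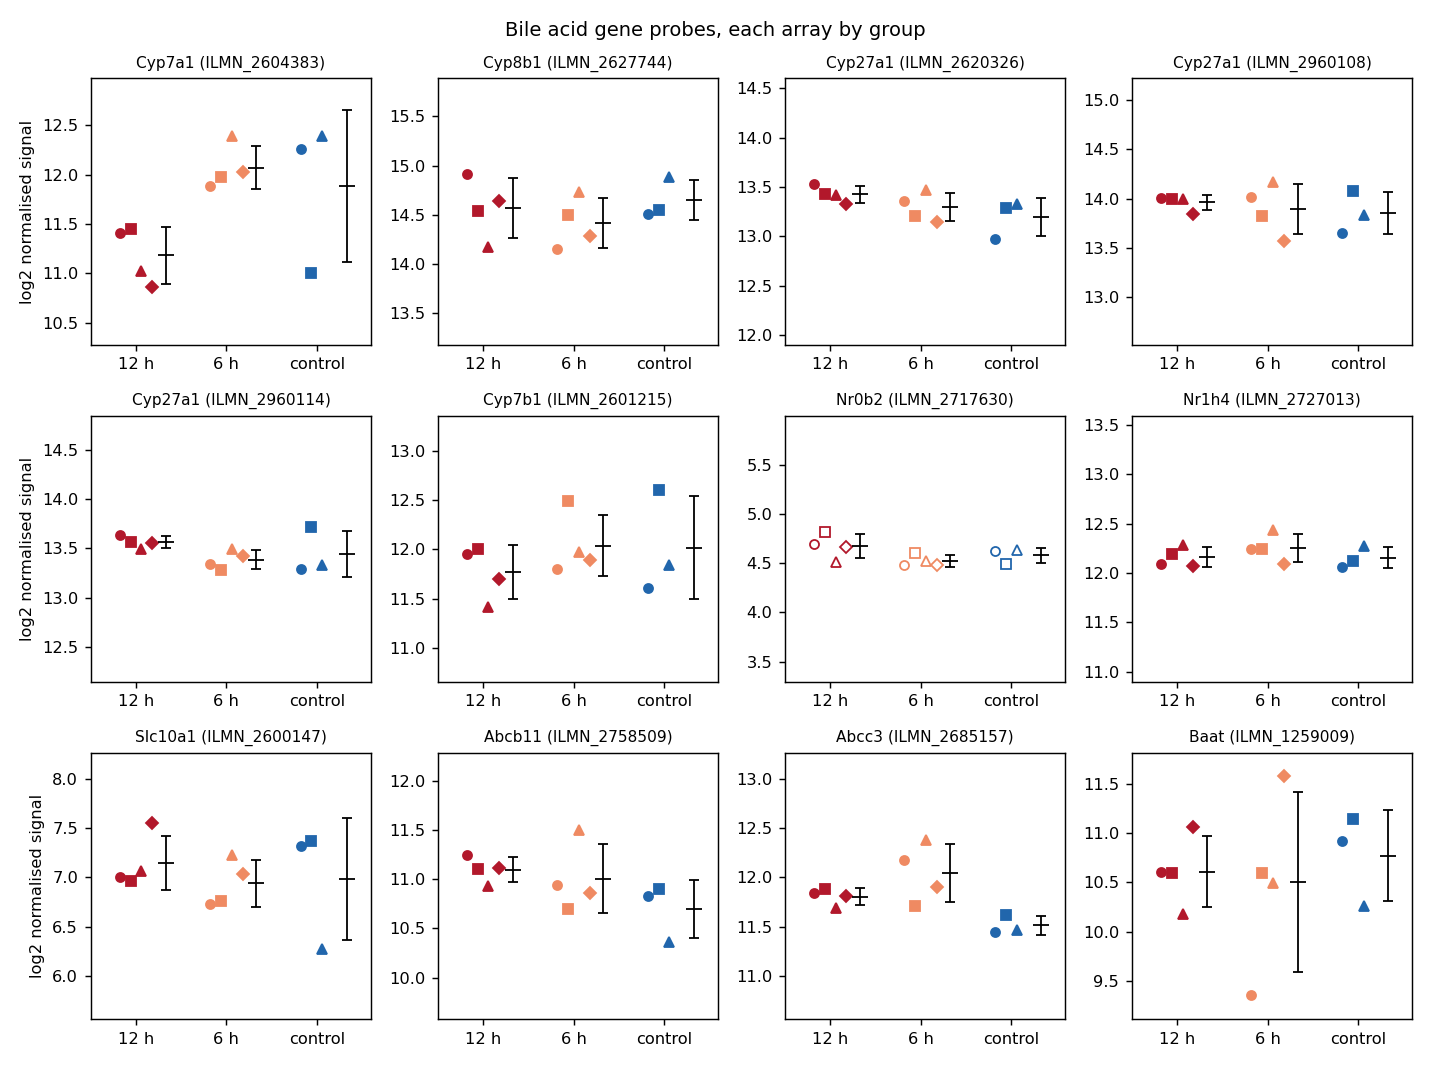
Log2 normalised signal (vertical axes, all spanning the same number of log2 units) of the 12 bile acid probes on each array, for 12 h, 6 h and control. Circles, squares, triangles and diamonds are replicates 1 to 4, open symbols were not detected (detection p 0.05 or more), and the bars beside the points are mean ± SD. The 4 Cyp7a1 arrays at 12 h sit between 10.86 and 11.45, below all 4 arrays at 6 h, while the controls range from 10.999 to 12.39.

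Cyp7a1, the rate-limiting hydroxylase of the classical route, had the lowest log2 fold change of the 11 probes in both comparisons that involve 12 h (probe ILMN_2604383). The log2 levels at 12 h were 11.41, 11.45, 11.02 and 10.86. At 6 h they were 11.89, 11.98, 12.39 and 12.03. The controls had 12.26, 10.999 and 12.39. Every 12 h array was below every 6 h array, and 1 control (replicate 2) lay inside the 12 h range while the other 2 controls lay inside the 6 h range. Lower without overlap between 12 h and 6 h was seen for this 1 of 11 probes, against 5.65% of all probes. The difference between 12 h and 6 h was -0.89 ± 0.27 (limma adjusted p = 0.152), a fold of 0.539 with a 95% interval of 0.359 to 0.810. It was -0.70 ± 0.29 at 12 h against control (limma adjusted p = 0.237) and 0.19 ± 0.29 at 6 h against control (limma adjusted p = 0.798).

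Leaving out 1 control mouse changed the calls for Cyp7a1. Without control replicate 2, Cyp7a1 was called lower at 12 h against control, at -1.14 (limma adjusted p = 0.0151), and lower at 12 h against 6 h, at -0.89 with the SE at 0.17 instead of 0.27 (limma adjusted p = 0.0370). The 6 h difference from control was then -0.25 instead of 0.19. Leaving out either other control moved the 12 h difference from control the opposite way, to -0.51 without replicate 1 (limma adjusted p = 0.517) and -0.44 without replicate 3 (limma adjusted p = 0.567). Median centring of all arrays, in place of quantile normalisation, also gave a call for the 12 h against 6 h difference. That difference was -1.11 (limma adjusted p = 0.0267). Relative to the median of all probes it was -0.92, a value that was not itself tested. Over all 23 alternative settings the adjusted p ranged between 0.0151 and 0.567 at 12 h against control and between 0.0267 and 0.579 at 12 h against 6 h. On the same control array Cyp7b1 was the highest of the 3 controls, at 12.60 beside 11.61 and 11.84. That was not particular to Cyp7b1. The array was also the highest control for Cyp27a1 (ILMN_2960108 and ILMN_2960114), Slc10a1, Abcb11, Abcc3 and Baat. It was not the highest for Cyp8b1, Nr1h4 or Cyp27a1 ILMN_2620326.

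Some arrays of different groups shared a chip (there were 5 chips). The 12 h minus 6 h difference of Cyp7a1 was -0.95 on chip 3 and -1.17 on chip 5. At 12 h minus control it was 0.45 on chip 3, which held the low control, and -1.40 on chip 5. At 6 h minus control the values were -0.46 on chip 2, 1.40 on chip 3 and -0.23 on chip 5. On both chips that held the pair 12 h was below 6 h, which follows from every 12 h array being below every 6 h array. The sign against control differed between chips. With chip as a fixed block the 12 h against 6 h difference was -0.85 (limma adjusted p = 0.579).

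**Figure D2:**
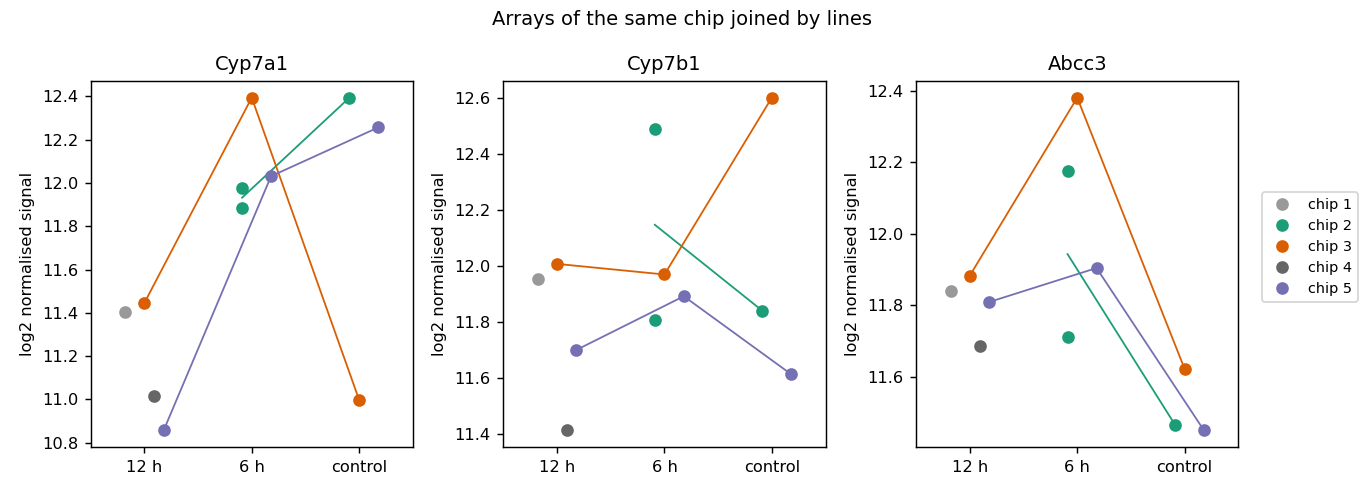
Log2 normalised signal (vertical axes) of Cyp7a1, Cyp7b1 and Abcc3 at 12 h, 6 h and control, 1 point per array, coloured by chip. Lines join the mean levels of arrays on the same chip; chips 1 and 4 held 1 array each. Chip 3 carries the control with the Cyp7a1 level of 10.999 and the Cyp7b1 level of 12.60, which was also the highest control on other bile acid probes. All 3 controls are the lowest Abcc3 arrays of their chips, because every 5'-AMP array was above every control.

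Cyp8b1 encodes the sterol hydroxylase that makes cholic acid. Its log2 level had lowest, median and highest values of 14.17, 14.59 and 14.92 at 12 h, 14.15, 14.39 and 14.74 at 6 h, and 14.51, 14.55 and 14.88 in controls (ILMN_2627744). The groups overlapped, with differences of -0.08 ± 0.19 at 12 h and -0.23 ± 0.19 at 6 h against control and 0.15 ± 0.18 between 12 h and 6 h.

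The 3 probes of Cyp27a1, the mitochondrial sterol hydroxylase of the alternative route, were read separately. ILMN_2620326 ranged over 13.33 to 13.53 at 12 h, 13.15 to 13.47 at 6 h and 12.97 to 13.33 in controls, with medians of 13.42, 13.28 and 13.28 in that order. ILMN_2960108 ranged over 13.84 to 14.01 at 12 h, 13.57 to 14.17 at 6 h and 13.65 to 14.08 in controls, with medians of 14.00, 13.92 and 13.84. ILMN_2960114 ranged over 13.50 to 13.64 at 12 h, 13.28 to 13.50 at 6 h and 13.29 to 13.71 in controls, with medians of 13.56, 13.38 and 13.33. No group stood apart on any of the 3 probes. Their differences from control were 0.23 ± 0.13, 0.11 ± 0.16 and 0.12 ± 0.13 at 12 h and 0.10 ± 0.13, 0.04 ± 0.16 and -0.06 ± 0.13 at 6 h. The lowest limma adjusted p among these 6 values was 0.388.

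Cyp7b1, the oxysterol hydroxylase that follows Cyp27a1, had lowest, median and highest log2 levels of 11.41, 11.83 and 12.01 at 12 h, 11.81, 11.93 and 12.49 at 6 h, and 11.61, 11.84 and 12.60 in controls (ILMN_2601215). Its differences were -0.25 ± 0.24 at 12 h and 0.02 ± 0.24 at 6 h against control, and -0.27 ± 0.23 at 12 h against 6 h. Baat, which joins bile acids to taurine, ranged over 10.18 to 11.06 at 12 h (median 10.60), 9.35 to 11.58 at 6 h (median 10.54) and 10.26 to 11.14 in controls (median 10.92, ILMN_1259009). The lowest and the highest Baat array of the study were both in the 6 h group. Baat had the widest spread of the 11 probes, with a within-group SD of 0.64 that exceeded the SD of 98.3% of all probes tested, so its 95% interval at 6 h against control reached from -1.16 to 0.62.

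Nr1h4, the gene of the bile acid receptor FXR, had log2 levels of 12.10, 12.19, 12.29 and 12.07 at 12 h (ILMN_2727013). The 6 h arrays read 12.24, 12.24, 12.43 and 12.09, and the controls 12.06, 12.13 and 12.27. The 3 groups overlapped throughout. The difference from control was 0.01 ± 0.12 at 12 h, with a 95% interval of -0.26 to 0.27, and 0.10 ± 0.12 at 6 h, with an interval of -0.17 to 0.36. Its within-group SD of 0.12 exceeded that of 7.21% of all probes tested, where the median SD was 0.23.

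Nr0b2, the FXR-induced corepressor SHP, was not detected on any of the 11 arrays, and it was the 1 probe not tested (ILMN_2717630). Its detection p was 0.413, 0.247, 0.832 and 0.462 at 12 h, 0.913, 0.556, 0.826 and 0.900 at 6 h, and 0.549, 0.887 and 0.538 in controls. The log2 levels were 4.69, 4.81, 4.51 and 4.67 at 12 h, 4.48, 4.61, 4.52 and 4.48 at 6 h, and 4.62, 4.49 and 4.63 in controls. These values are not above background, so no fold change is given.

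Known regulatory motifs were looked for in the 250 bases before the start of each gene in RefSeq (GRCm38.p6): clock elements, the FXR inverted repeat, and sites of nuclear receptors that act on bile acid genes. The table used held 7 windows for 6 of the 10 genes (Cyp8b1, Cyp27a1, Nr0b2, Nr1h4, Slc10a1 and Abcb11). Both strands were searched, and the motifs were chosen with these windows in view. The E-box CACGTG is in Nr0b2 and in 6.02% of all 32851 windows. The FXR inverted repeat (AGGNCA, any base, TGNCCT) is in Abcb11 and in 0.0852% of all windows. TAGGTCA, bound by the protein of Nr1d1, is on the opposite strand of the same Abcb11 stretch, overlapping the inverted repeat, and in 2.23% of all windows. The Nr5a2 site TCAAGGT is in Nr0b2 and in 2.96% of windows, and the Hnf4a core CAAAGTCCA is in Cyp8b1 and in 0.384%. TTANGTAA (the D-box) and TGGGTCA were in none of the 7 windows and in 2.06% and 3.24% of all windows. The stretches that hold a match are shown so that the letters named here can be seen in place, with the motif in capitals, each read 5′ to 3′ on the strand of its gene. The Abcb11 repeat begins 63 bases before the gene start, the Nr0b2 E-box 195 and site 68, and the Cyp8b1 core 67. A match describes the letters only.
Abcb11 inverted repeat, chr2:69342627-69342719, minus strand: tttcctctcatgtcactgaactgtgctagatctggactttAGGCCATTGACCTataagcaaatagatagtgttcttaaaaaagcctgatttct
Nr0b2 E-box, chr4:133553141-133553226, plus strand: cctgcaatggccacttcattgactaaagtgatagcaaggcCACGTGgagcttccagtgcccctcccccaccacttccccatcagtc
Nr0b2 site, chr4:133553268-133553354, plus strand: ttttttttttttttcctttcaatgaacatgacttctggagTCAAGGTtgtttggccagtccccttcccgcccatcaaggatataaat
Cyp8b1 core, chr9:121916324-121916412, minus strand: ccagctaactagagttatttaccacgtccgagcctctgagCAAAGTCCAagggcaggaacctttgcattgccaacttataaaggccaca

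Of the transporters, Abcc3 (MRP3, which carries conjugated bile acids back across the basolateral membrane into blood) came closest to a call. Its values are given in full because of that, a choice made after they were seen. The log2 levels were 11.84, 11.88, 11.69 and 11.81 at 12 h, 12.17, 11.71, 12.38 and 11.90 at 6 h, and 11.45, 11.62 and 11.47 in controls (ILMN_2685157). All 8 arrays of 5'-AMP mice were above all 3 controls. Higher without overlap was seen for 2 of 11 probes at 12 h against control (Abcc3 and Abcb11), where 9.92% of all probes were, and for 1 of 11 at 6 h against control (Abcc3), where 6.61% were. The difference was 0.29 ± 0.15 at 12 h (limma adjusted p = 0.351) and 0.53 ± 0.15 at 6 h (limma adjusted p = 0.141). The 6 h value is a fold of 1.44 with a 95% interval of 1.14 to 1.82. Between 12 h and 6 h it was -0.24 ± 0.14 (limma adjusted p = 0.480).

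On single chips the 6 h minus control difference of Abcc3 was 0.48, 0.76 and 0.45 (chips 2, 3 and 5). The 12 h minus control difference was 0.26 and 0.36 (chips 3 and 5). The sign of these differences follows from every 5'-AMP array being above every control, so it adds nothing to that. Abcc3 was called higher at 6 h against control with the arrays centred on their medians in place of quantile normalisation (0.63, limma adjusted p = 0.0447, while the median of all probes moved to 0.13, so 0.50 relative to it) and with array brightness as a covariate (0.61, limma adjusted p = 0.0479). Over the 23 alternatives the adjusted p ranged between 0.0447 and 0.332.

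Abcb11 encodes the bile salt export pump of the canalicular membrane. Its log2 levels were 11.24, 11.10, 10.93 and 11.11 at 12 h, 10.95, 10.70, 11.50 and 10.86 at 6 h, and 10.83, 10.90 and 10.36 in controls (ILMN_2758509). The lowest 12 h array, at 10.93, was just above the highest control, at 10.90, while the 6 h arrays overlapped the controls. The difference was 0.40 ± 0.19 at 12 h (limma adjusted p = 0.313) and 0.30 ± 0.19 at 6 h (limma adjusted p = 0.478). Slc10a1 (NTCP, the sodium-dependent importer of bile acids from blood) had lowest, median and highest log2 levels of 6.97, 7.03 and 7.55 at 12 h, 6.73, 6.90 and 7.23 at 6 h, and 6.27, 7.32 and 7.37 in controls (ILMN_2600147). The lowest Slc10a1 array was a control, and the differences were 0.16 ± 0.25 at 12 h and -0.05 ± 0.25 at 6 h against control.

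**Figure D3:**
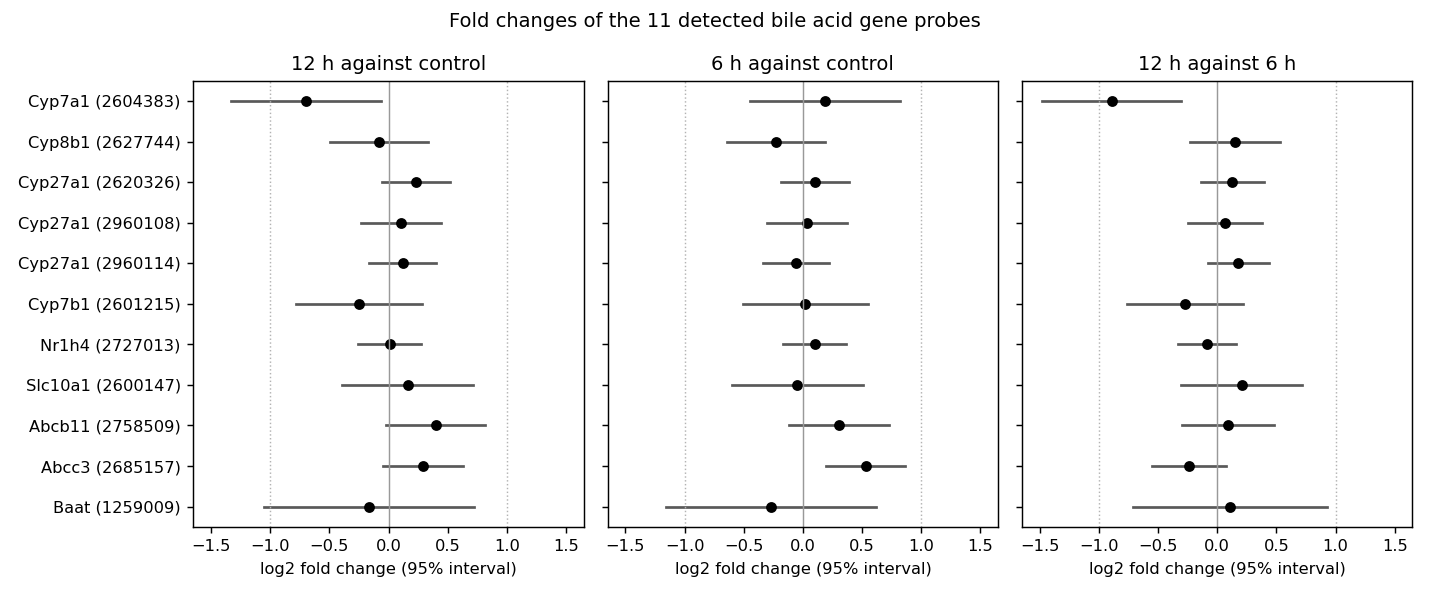
Log2 fold change (points) with its 95% interval (lines) of the 11 tested bile acid probes, for both times against control and for 12 h against 6 h; numbers in brackets are the probe numbers and dotted lines mark 2-fold. The intervals of Cyp7a1 at 12 h against control and against 6 h and of Abcc3 at 6 h against control leave out 0 without adjustment, and no probe passed after adjustment.

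Further genes of the pathway were counted against the same shares of all probes called, 2.69% at 12 h against control, 0.807% at 6 h against control and 0.872% between the 2 times, so counts of 0 in lists of this size are near the background. Of 12 further synthesis enzymes 9 were tested, and in each of the 3 comparisons 0 were called. The lowest adjusted p against control belonged to Acot8, a peroxisomal thioesterase with 3 tested probes. Its probe ILMN_2738629 had -0.39 ± 0.14 at 12 h (limma adjusted p = 0.164) and -0.55 ± 0.14 at 6 h (limma adjusted p = 0.0958). Probe ILMN_2983587 had -0.25 ± 0.13 at 12 h and -0.41 ± 0.13 at 6 h. Probe ILMN_1250358 had -0.02 ± 0.18 at 12 h and -0.17 ± 0.18 at 6 h. The list's median was -0.06 at 12 h and -0.01 at 6 h. Of 15 further bile and organic anion transporters on the array 11 were tested and 0 called. Abcg5, a subunit of the sterol exporter into bile, had 0.58 ± 0.18 at 12 h (limma adjusted p = 0.128) and 0.49 ± 0.18 at 6 h (limma adjusted p = 0.229), and the list's median was 0.18 at 12 h and 0.17 at 6 h. All 5 other FXR targets on the array were tested and 0 called; Slc51b (Ostb on the array) and Abcb4 are also in the transporter list. Among them Sdc1, a heparan sulphate proteoglycan, had probe values of 0.33 and 0.70 at 12 h and of 0.38 and 0.41 at 6 h, and the list's median was 0.18 at 12 h and -0.10 at 6 h.

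Foxa2, a liver forkhead factor, was the only called gene among 13 tested of 17 regulators of bile acid synthesis on the array, and it was lower at 12 h against 6 h. Its log2 levels averaged 7.11 ± 0.29 (SD, n = 4) at 12 h, 8.08 ± 0.36 (SD, n = 4) at 6 h and 7.78 ± 0.23 (SD, n = 3) in controls (ILMN_1246216). The difference between 12 h and 6 h was -0.98 ± 0.20 (limma adjusted p = 0.0423), and the call held in 7 of 23 alternatives, in 1 of the 11 that leave out an array. Against control it was -0.67 ± 0.21 at 12 h (limma adjusted p = 0.130) and 0.31 ± 0.21 at 6 h (limma adjusted p = 0.517). Nr5a2 (LRH-1), Hnf4a and Fgfr4, the activators and the FGF receptor that set Cyp7a1 transcription, had no called probe. Fgfr4 was dim, averaging 5.29 at 12 h, 5.37 at 6 h and 5.05 in controls, which limits what its probe can show. The smallest p of the list at 12 h against control belonged to Prox1 (ILMN_2598766, 0.59 ± 0.18, limma adjusted p = 0.126). The other Prox1 probe, ILMN_2894355, had 0.10 ± 0.32 at 12 h (limma adjusted p = 0.908). At 6 h against control the smallest p belonged to Nr1i2, the xenobiotic receptor PXR (-0.37 ± 0.12, limma adjusted p = 0.185). The list's median was 0.02 at 12 h and -0.06 at 6 h.

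Of 7 clock factors known to act on bile acid synthesis 6 were tested, and 3 of them (Nr1d1, Nfil3 and Bhlhb2) were called in at least 1 comparison, all higher. The counts were 3 of 6 at 12 h against control, where 2.69% of all probes were called, 2 of 6 in the 6 h comparison with control (0.807% of all probes) and 2 of 6 between the 2 times (0.872%), with 0 called lower. The list was chosen with earlier results of these data known, so these counts describe it and do not test it. A gene counted if any of its probes was called, while the shares are of single probes. Dbp, Tef and Nr1d2 were called in no comparison. Nr1d1 (Rev-erb alpha, a transcriptional repressor) had 10.69 ± 0.31 (SD, n = 4) at 12 h, 7.78 ± 0.75 (SD, n = 4) at 6 h and 6.44 ± 0.50 (SD, n = 3) in controls on probe ILMN_1229091. On this probe it was higher by 4.25 ± 0.36 at 12 h against control (limma adjusted p = 2.0e-05) and by 2.91 ± 0.33 at 12 h against 6 h (limma adjusted p = 0.00167), and the uncalled difference at 6 h against control was 1.34 ± 0.36 (limma adjusted p = 0.113). Its other probe, ILMN_2749669, was detected on no control array and is given as a bound. It was at least 13.9-fold higher at 12 h (means 9.18 at 12 h and 4.94 in controls, limma adjusted p = 2.3e-06) and at least 1.93-fold higher at 6 h (mean 6.33, limma adjusted p = 0.0325), where the dim group was set to the higher of its own value and the lowest detected signal of each array. These bounds hold on the background-corrected scale. Without background correction the log2 differences from control of this probe were smaller, 2.75 at 12 h, which was still called, and 0.67 at 6 h (limma adjusted p = 0.0797), and ILMN_1229091 had 3.41 at 12 h. The 6 h call of ILMN_2749669 held in 9 of 21 alternatives. With chip as a fixed block the 12 h against 6 h calls were lost on both probes, at 2.70 and 2.57 (limma adjusted p = 0.0955 and 0.0693).

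Nfil3 (E4BP4, a repressor at D-box elements) averaged 12.71 ± 0.05 (SD, n = 4) at 12 h, 12.08 ± 0.22 (SD, n = 4) at 6 h and 11.62 ± 0.10 (SD, n = 3) in controls. It was higher by 1.09 ± 0.13 at 12 h (limma adjusted p = 5.7e-04) and by 0.63 ± 0.12 at 12 h against 6 h (limma adjusted p = 0.0369), with 0.46 ± 0.13 at 6 h against control (limma adjusted p = 0.142). The 12 h against 6 h call of Nfil3 held in 8 of 23 alternatives, in 2 of the 11 that leave out an array. Bhlhb2, now named Bhlhe40, encodes a basic helix-loop-helix repressor of the clock. It averaged 12.19 ± 0.21 (SD, n = 4) at 12 h, 11.58 ± 0.37 (SD, n = 4) at 6 h and 9.94 ± 0.30 (SD, n = 3) in controls, and was higher by 2.24 ± 0.21 at 12 h (limma adjusted p = 5.4e-05) and 1.64 ± 0.21 at 6 h (limma adjusted p = 0.00172). Dbp and Tef, the activators at D-box elements, were not called: Dbp had -0.16 ± 0.27 at 12 h and -0.44 ± 0.27 at 6 h, and Tef had -0.80 ± 0.26 at 12 h (limma adjusted p = 0.137) and -0.71 ± 0.26 at 6 h (limma adjusted p = 0.223).

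**Figure D4:**
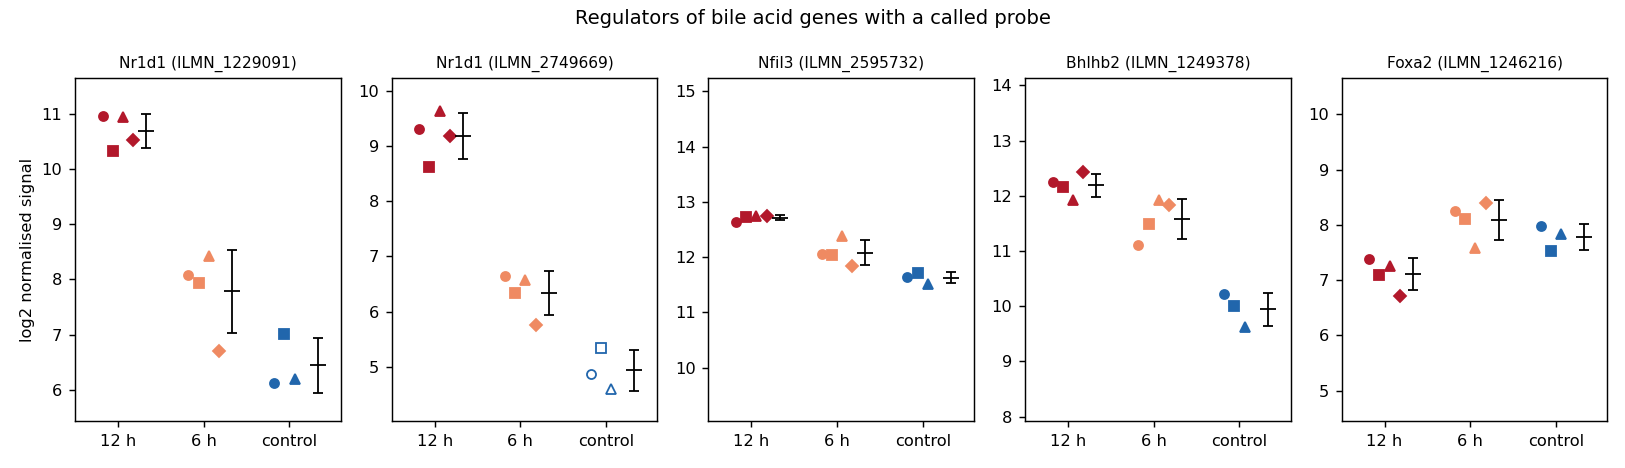
Log2 normalised signal (vertical axes, all spanning the same number of log2 units) of the regulator probes called in any comparison, by array at 12 h, 6 h and control, with mean ± SD; symbols as in the plot of the bile acid probes, open where not detected. Both Nr1d1 probes average highest at 12 h and lowest in controls, Nfil3 averages 12.71, 12.08 and 11.62 in the same order, and Foxa2 averages 7.11 at 12 h against 8.08 at 6 h.

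The 3 genes whose probes followed Cyp7a1 most closely over the 11 arrays were 6720469N11Rik (now Kirrel; Pearson r = 0.925), Ncoa6ip (now Tgs1; r = 0.915) and Eif2b5 (r = 0.904). The 11 arrays share the 3 groups and the 5 chips, so these values describe likeness in this set only. None of the 3 was called in any comparison. Because Nr0b2 was not detected, no such genes are given for it.

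Array mean signal was 412 to 494 at 12 h, 458 to 635 at 6 h and 422 to 542 in controls, with 15131 to 15589, 15403 to 15903 and 15174 to 15663 probes detected in the same order. Of 10 hepatocyte markers 9 were tested and 0 called, and Fgb was detected on no array. Their summed normalised signal was 195799 to 207213 at 12 h, 165857 to 209819 at 6 h and 198028 to 204843 in controls. Bulk liver RNA cannot tell fewer cells of a type from less RNA per cell. Among 10 marker lists, called genes were S100a8 of the neutrophil list (1.70 at 12 h and 2.01 at 6 h against control) and Lrat and Reln of the stellate list (Lrat -1.07 at 12 h against control, Reln -0.62 at 12 h against 6 h). No other list held a called gene, and the shares of all probes called were 2.69%, 0.807% and 0.872%, as above. The neutrophil list (4 of 7 tested, Ngp and Mpo detected on no array) ranged from -0.32 to 1.70 at 12 h and from 5.7e-04 to 2.01 at 6 h against control. Its sums overlapped, with 322 to 928 at 12 h, 254 to 1450 at 6 h and 207 to 411 in controls. The cholangiocyte list (6 of 9 tested, Epcam and Cftr detected on no array) summed to 1846 to 2352 at 12 h, 2295 to 2598 at 6 h and 2397 to 2751 in controls. The macrophage list (8 of 9 tested, Cd5l detected on no array) summed to 3033 to 4702 at 12 h, 3327 to 8034 at 6 h and 5038 to 7318 in controls. The stellate list (5 of 8 tested, Col1a2 detected on no array) summed to 7842 to 9041 at 12 h, 9391 to 11675 at 6 h and 10253 to 11521 in controls. The lymphocyte list (3 of 8 tested, Cd8a, Ms4a1 and Nkg7 detected on no array) summed to 96.3 to 124 at 12 h, 118 to 225 at 6 h and 159 to 193 in controls. The erythroid list (4 of 7 tested, Epb4.2 detected on no array) summed to 50519 to 61345 at 12 h, 56098 to 70402 at 6 h and 26337 to 51163 in controls. The cholangiocyte, macrophage, stellate and lymphocyte sums were lower on every 12 h array than on every control, where Cyp7a1 had -0.70 and Abcc3 0.29, and the erythroid sum was higher on every 6 h array than on every control, where Abcc3 had 0.53. The stellate sum was also lower on every 12 h array than on every 6 h array, where Cyp7a1 had -0.89. The part of other cells in these values was not tested.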

How the data were processed

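Per the file headers, the authors deposited for each of 11 arrays a mean bead signal per probe, an intensity on a linear scale with no normalisation between arrays, and a detection p-value per probe. Per the submitters' processing notes these are a GenomeStudio export, with the version not given in the sources used here. A deposited table of normalised intensity values, whose method is not stated, was used as an alternative.

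From these, limma 3.58.1 (R 4.3.3) applied normexp background correction estimated from the detection p-values (offset 16), quantile normalisation and log2. The 16978 probes detected (p under 0.05) on 3 or more arrays entered the fit. Group means of all 11 arrays were fitted with lmFit and eBayes (8 residual degrees of freedom), with Benjamini-Hochberg adjustment of the two-sided moderated p-values across these probes. Replicates are separate animals per the labels, and 1 array per animal limits the precision. Pathway and marker lists were summarised per gene by the brightest kept probe, and a gene counted as called if any of its probes was.

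Genes were named by rule: all probes of the 10 genes, called genes of each list or otherwise that with the smallest p, and the 3 genes most correlated with Cyp7a1. Members, lists and motifs were chosen with earlier results of these data known. Only the model fit and the adjustment were tested on simulated log2 values, for both comparisons with control. Replicate numbers are not known to pair animals. Deviations of same-numbered arrays of different groups correlated at -0.21 to 0.45, and those of differently numbered arrays at -0.41 to 0.30. No 2 arrays were identical. Klb and Slc51a were not matched in the table, and some list members are not reported here. Alternatives covered background, scaling, filter, model, chip, brightness, and leaving out each array.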

Additional observations from a re-analysis of the deposited data

Results flagged for a closer look

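On 2 bile acid probes, array 4 of the 12 h group lay far from the other 3 arrays of its group. For Cyp27a1 (ILMN_2960108) its log2 level was 13.84, beside 14.00 to 14.01 on the others. For Slc10a1 (ILMN_2600147) it was 7.55, beside 6.97 to 7.06. These were 2 of 32 groups of 4 arrays examined, and chance alone flags about 1 group in 20.

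The effects against control differed between 12 h and 6 h, by a test of that difference, for some regulators of the pathway. Of the regulators, only probes already called in a comparison were examined, and Foxa2 was called in this one alone. Nr1d1 differed by 2.85 (ILMN_2749669, limma adjusted p = 2.5e-04) and by 2.91 (ILMN_1229091, limma adjusted p = 0.00167), Nfil3 by 0.63 (limma adjusted p = 0.0369) and Foxa2 by -0.98 (limma adjusted p = 0.0423). The Nfil3 and Foxa2 calls held in 8 and 7 of 23 alternatives. With chip as a fixed block all of these calls were lost.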

How the results depend on the processing

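Of 753 values of bile acid probes under alternative settings, 702 kept their direction and their side of the threshold, 5 became called and 46 changed sign, none of the last called. Probes called at 12 h against control (456 of 16978 tested) became 301 with the stricter filter, which left only 11038 probes to test. They became 896 with only the compared groups and 159 with chip as a fixed block. Leaving out 1 array gave 264 (without control replicate 1) to 564. At 6 h against control (137) they became 289 without background correction, 268 with median centring, 62 with only the compared groups, 250 with trended and robust variance, 67 and 231 with chip as a fixed and a random block, and 576 with array brightness; leaving out 1 array gave 70 to 232. At 12 h against 6 h (148) they became 260 without background correction, 843 with median centring, 230 with trended and robust variance and 7 with chip as a fixed block; leaving out 1 array gave 57 to 169. Median centring moved the share of higher calls to 93.7% at 6 h against control (67.2% with quantile normalisation) and to 9.02% at 12 h against 6 h (54.1%), with the median of all probes at 0.13 and -0.20. Bile acid probes called became 1 instead of 0 at 6 h with median centring and with array brightness (Abcc3), at 12 h against 6 h with median centring (Cyp7a1 -1.11, or -0.92 relative to the median of all probes), and, over the arrays left out, 0 to 1 at 12 h against control and at 12 h against 6 h (Cyp7a1 without control replicate 2). The replicate block gave 454 calls at 12 h and 125 at 6 h against control and 104 between the 2 times, and called no bile acid probe; the numbers are not known to pair the mice.

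Uncalled values that changed sign were these. With median centring: at 12 h against control Cyp27a1 ILMN_2960114 -0.010 and Nr1h4 -0.12; at 6 h against control Cyp27a1 ILMN_2960114 0.019 and Slc10a1 0.13; at 12 h against 6 h Cyp27a1 -0.071 (ILMN_2620326), -0.12 (ILMN_2960108) and -0.030 (ILMN_2960114), Slc10a1 -0.029, Abcb11 -0.15 and Baat -0.16. With array brightness: at 12 h against control Nr1h4 -0.045 and Baat 0.15, at 6 h against control Cyp7b1 -0.10, at 12 h against 6 h Cyp27a1 -0.0037 (ILMN_2620326) and -0.073 (ILMN_2960108). With chip as a fixed block: Slc10a1 0.064 at 6 h against control, and at 12 h against 6 h Slc10a1 -0.0092, Abcb11 -0.11 and Baat -0.15. Leaving out 1 array gave, at 12 h against control, Cyp7b1 -0.45 to 0.042, Nr1h4 -0.036 to 0.067, Baat -0.42 to 0.021, Cyp8b1 -0.19 to 0.050 and Slc10a1 -0.20 to 0.35. At 6 h against control it gave Cyp7a1 -0.25 to 0.44, Cyp7b1 -0.18 to 0.31, Slc10a1 -0.40 to 0.14, Baat -0.63 to 0.12, and Cyp27a1 -0.0093 to 0.17 (ILMN_2620326), -0.066 to 0.15 (ILMN_2960108) and -0.14 to 0.076 (ILMN_2960114). At 12 h against 6 h it gave Baat -0.28 to 0.46, Abcb11 -0.0082 to 0.26 and Cyp27a1 ILMN_2960108 -0.036 to 0.16. The cause of these changes was not tested. Signal over background limits Nr0b2, which no array detected, and 3 or 4 arrays per group limit the rest.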
